A study of Mus musculus with 8 samples.

Results

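The genes described encode secreted or membrane-bound effector cytokines and ligands of the tumor necrosis factor (TNF) family, namely Ifng, Tnf, Lta, Ltb, Il2, Csf2, Csf1, Tnfsf10, Tnfsf14 and Il16. These 10 genes were chosen by name, with earlier results of these data known, and all were found among the 55487 Ensembl genes of the deposited tables. The libraries came from cells sorted as CD8+ tumor-infiltrating lymphocytes from subcutaneous B16F10 tumors, a pigmented mouse melanoma line, in C57BL/6 mice. Of the mice, 4 received tacrolimus (FK506) by intraperitoneal injection at 3 mg/kg, repeated at 5-day intervals, and 4 received vehicle on the same schedule, with 1 library per mouse. Dosing started 7 to 9 days after the tumor cells were injected, at a tumor volume of about 50 mm3, and tumors were taken 6 days after it began. All mice of both groups carried tumors. The ages of the mice were not given in the sources used here.

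T cells release interferon gamma, TNF and lymphotoxins when their receptor is engaged. Receptor signaling raises calcium, calcium activates the phosphatase calcineurin, and calcineurin moves NFAT transcription factors into the nucleus, where they act with AP-1 and NF-kB on cytokine promoters. Tacrolimus blocks calcineurin in a complex with the immunophilin FKBP12, and loss of Il2 induction is its textbook effect in T cells. Several of these ligands are also made by other cells: macrophages are a main source of TNF, many stromal and tumor cells make Csf1, and Il16 is held as a precursor in lymphocytes.

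The stretches before the annotated starts of 5 of these genes are shown because they hold the letters of the NFAT core, the element through which calcineurin acts, and because they include genes whose groups overlapped and genes whose groups did not. They are RefSeq sequences of GRCm38.p6, given 5′ to 3′ on the strand of the gene. Searched motifs are in capitals: the NFAT core GGAAA, AP-1 TGANTCA, NF-kB (GGGA, any base, TT, any base, CC) and the TATA box TATAAA, each on both strands. The lines run up to the GENCODE M21 gene body, at chr10:118440796-118441045 (plus strand) for Ifng, chr3:37125960-37126204 (minus) for Il2, chr17:35202008-35202257 (minus) for Tnf, chr17:35194257-35194438 (plus) for Ltb and chr3:107760470-107760719 (minus) for Csf1.
Ifng: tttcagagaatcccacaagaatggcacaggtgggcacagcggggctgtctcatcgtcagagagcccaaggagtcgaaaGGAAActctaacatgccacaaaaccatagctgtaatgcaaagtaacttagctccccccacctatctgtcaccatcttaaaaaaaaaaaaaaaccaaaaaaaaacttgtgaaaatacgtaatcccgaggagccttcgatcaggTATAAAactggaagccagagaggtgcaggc
Il2: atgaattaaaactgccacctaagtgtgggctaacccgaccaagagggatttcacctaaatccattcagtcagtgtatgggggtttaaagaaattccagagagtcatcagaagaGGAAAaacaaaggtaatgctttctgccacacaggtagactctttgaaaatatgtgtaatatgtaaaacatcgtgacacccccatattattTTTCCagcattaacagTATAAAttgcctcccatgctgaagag
Tnf: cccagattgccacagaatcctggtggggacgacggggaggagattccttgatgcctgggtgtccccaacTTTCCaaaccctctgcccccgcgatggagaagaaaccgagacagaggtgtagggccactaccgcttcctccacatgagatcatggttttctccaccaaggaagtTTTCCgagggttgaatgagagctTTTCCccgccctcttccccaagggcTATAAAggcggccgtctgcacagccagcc
Ltb: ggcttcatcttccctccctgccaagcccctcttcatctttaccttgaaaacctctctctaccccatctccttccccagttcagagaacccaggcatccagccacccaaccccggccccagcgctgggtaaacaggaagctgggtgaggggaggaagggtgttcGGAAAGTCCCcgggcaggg
Csf1: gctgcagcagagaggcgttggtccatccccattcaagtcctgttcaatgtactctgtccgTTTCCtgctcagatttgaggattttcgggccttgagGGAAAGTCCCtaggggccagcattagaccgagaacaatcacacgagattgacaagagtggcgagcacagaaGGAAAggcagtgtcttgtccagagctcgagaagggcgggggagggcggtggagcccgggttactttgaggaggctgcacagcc

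Within 250 bases before the RefSeq start, Tnf and Csf1 each held 3 NFAT cores, Il2 held 2, and Ifng and Ltb held 1 each. In Ltb the core at 87 to 83 bases before the start overlapped the NF-kB letters at 87 to 78 bases. In Csf1 the core at 154 to 150 bases overlapped NF-kB letters at 154 to 145 bases. All 10 genes had at least 1 NFAT core in at least 1 of their 12 windows, and so did 55.6% of the 32851 windows of this length over all RefSeq starts, so the core by itself is a common string. The NF-kB letters were rarer, in 0.98% of all windows, the AP-1 letters were in 6.75% and the TATA box in 12.4%. AP-1 letters stood in windows of Tnfsf14 and Il16, outside the 5 genes shown. Another window of Il16 held NF-kB letters at 49 to 40 bases, which overlapped an NFAT core at 44 to 40 bases. A match of letters is a description and not a binding site.

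**Figure D1:**
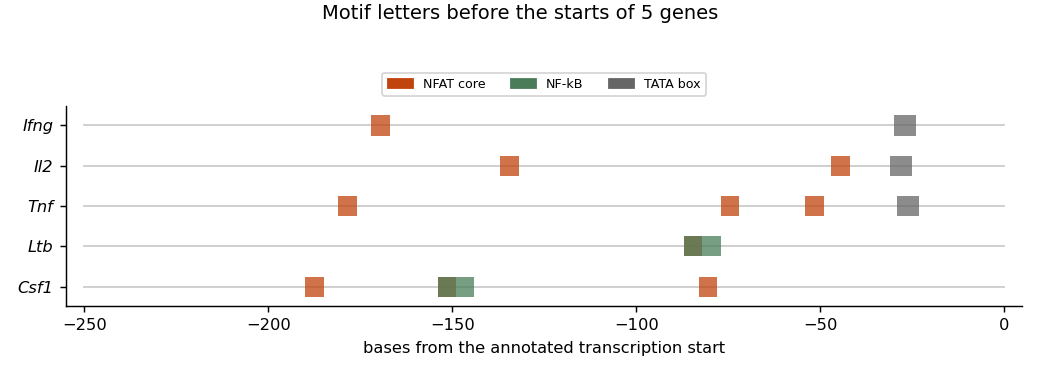
Positions of motif letters in the 250 bases before the RefSeq starts of Ifng, Il2, Tnf, Ltb and Csf1, in bases from the start, with NFAT cores, NF-kB letters and TATA boxes as coloured blocks. Ifng, Il2 and Tnf have a TATA box about 30 bases before the start, while Ltb and Csf1 have NF-kB letters that overlap an NFAT core.

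The libraries held abundant transcripts of melanoma cells beside those of T cells, although the cells were sorted as CD8+ lymphocytes. Depth was similar, at an estimated 15220000 to 19100000 fragments per library. The 10 melanoma cell markers summed to 22539 to 27641 FPKM (fragments for each kilobase of a transcript, relative to the size of the library) in the tacrolimus libraries and 18943 to 34101 in the vehicle libraries, and the 20 T cell identity genes to 77.4 to 560.6 FPKM with tacrolimus and 561.05 to 2716 FPKM with vehicle. The CD3 chain gene Cd3e was at 46.0, 6.53, 18.2 and 19.1 FPKM in tacrolimus replicates 1 to 4, against 146, 40.8, 61.6 and 74.7 FPKM in vehicle replicates 1 to 4. The 16 macrophage and monocyte genes summed to 1045 to 1313 FPKM with tacrolimus and 1344 to 2961 with vehicle, while the natural killer cell gene Ncr1 and the neutrophil gene Ly6g were at 0.60 FPKM or less in every library. Vehicle replicate 1 stood apart: it had the highest value of all 8 libraries in all 10 cytokine and ligand genes, as in Cd3e. The 8 natural killer cell genes summed to 60.0 to 137 FPKM with tacrolimus and 121 to 536 FPKM with vehicle, and the 6 neutrophil genes to 13.9 to 46.1 FPKM with tacrolimus and 32.1 to 351 FPKM with vehicle. In bulk RNA, fewer cells of a type and less RNA per cell cannot be told apart. The part of each cell type in the differences below was not tested.

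All 10 genes had a lower group mean in the tacrolimus libraries than in the vehicle libraries. The mean was 4.28-fold lower for Ifng, 3.69-fold lower for Ltb and 4.76-fold lower for Il16, and without vehicle replicate 1 these folds were 2.52, 2.41 and 3.16. The mean of Tnf was 3.00-fold lower with all libraries and 1.37-fold lower without that library, and the mean of Il2 was higher with tacrolimus without it (0.075 against 0.047 FPKM). None of the 10 passed an adjusted p of 0.05 in limma over 13032 genes, where 0% of all genes tested were called. Of the 10, 6 reached the minimum for testing (a level at or above 1 FPKM in 4 libraries or more): Ifng, Tnf, Ltb, Csf2, Csf1 and Il16. Their log2 differences had a median of -1.16, against -0.19 over all genes tested, and 75.7% of all genes tested were lower with tacrolimus. At an unadjusted p under 0.05 there were 15.8% of all genes tested on the lower side; of the 10 genes, Ifng, Ltb, Csf2, Csf1 and Il16 were among them. Csf2 reached 1 FPKM in 1 tacrolimus library and 3 vehicle libraries, and Il16 in 2 tacrolimus libraries and 4 vehicle libraries, so these genes passed the minimum mainly through the vehicle group. Scaling the libraries by median of ratios put the median of all genes at 0.01 and the split of genes at an unadjusted p under 0.05 at 724 lower and 746 higher, against 2056 lower and 208 higher as deposited. Under that scaling the 6 genes had log2 differences between -1.68 for Ifng and -0.59 for Csf1.

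Ifng encodes interferon gamma, the cytokine with which CD8+ T cells raise antigen presentation in tumor cells and macrophages (ENSMUSG00000055170; GRCm38 chromosome 10, 118441046 to 118445892, plus strand). Its level was 13.6, 2.21, 14.8 and 11.2 FPKM in the tacrolimus libraries, against 99.8, 18.1, 40.0 and 20.6 FPKM in the vehicle libraries. Every tacrolimus library lay below every vehicle library, the lowest being tacrolimus replicate 2, which also had the lowest Cd3e. The log2 difference on the log2(FPKM + 1) scale was -1.89 (SE 0.61, 95% interval -3.24 to -0.54, limma adjusted p = 0.202). Groups that did not overlap, with tacrolimus lower, were found for Ifng, Ltb, Csf1 and Il16 among the 10 genes and for 10.2% of all genes tested.

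Il2 encodes interleukin 2, the growth factor of activated T cells. It was listed at 0, 0, 0.23 and 0.07 FPKM in the tacrolimus libraries and at 0.40, 0.07, 0.07 and 0 FPKM in the vehicle libraries. The gene has 1 annotated transcript of 1144 bases, for which 1 fragment corresponds to an estimated 0.058 to 0.073 FPKM, so these values are a few fragments each. The groups overlapped, and no difference in Il2 was detectable at this depth.

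Tnf encodes the trimeric cytokine that gives the family its name and acts on many cell types through NF-kB (chromosome 17, 35199381 to 35202007, minus strand). It was at 5.23, 4.65, 6.52 and 5.71 FPKM in the tacrolimus libraries and at 43.5, 8.61, 4.56 and 9.60 FPKM in the vehicle libraries. The tacrolimus libraries lay close together, and vehicle replicate 3 lay below all of them, so the groups overlapped. The log2 difference was -0.96 (SE 0.52, 95% interval -2.11 to 0.20, limma adjusted p = 0.355), and -0.35 without vehicle replicate 1. Tacrolimus replicates 1 and 2 differed in Cd3e (46.0 and 6.53 FPKM) and hardly in Tnf (5.23 and 4.65 FPKM). Csf1r, a macrophage receptor gene, was at 12.9, 6.88, 2.45 and 12.6 FPKM in vehicle replicates 1 to 4. Its lowest value thus fell in the library with the lowest Tnf of the group, but replicates 1 and 4 were close in Csf1r and far apart in Tnf. Most of the macrophage and monocyte genes listed were lowest in vehicle replicate 3 within that group, but Apoe, Itgam, Ly6c2 and Ccr2 were not. With the level of 16 macrophage and monocyte genes as a covariate the log2 difference of Tnf was 0.22, and those of the other genes were closer to 0 as well, at -0.84 for Ifng, -0.99 for Ltb, -0.64 for Il16, -0.60 for Csf1 and for Csf2, and -1.0 for Cd3e. The part of macrophages in the values of Tnf was not tested.

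Lta and Ltb encode the lymphotoxins, which organise lymphoid tissue and lie beside Tnf on chromosome 17 (Ltb at 35194439 to 35196320, plus strand; Lta at 35203165 to 35205351, minus strand). Ltb was at 11.9, 3.01, 8.33 and 5.65 FPKM in the tacrolimus libraries, against 54.4, 14.3, 25.7 and 12.2 FPKM in the vehicle libraries. The groups did not overlap, though tacrolimus replicate 1 at 11.9 and vehicle replicate 4 at 12.2 FPKM were close. The log2 difference was -1.64 (SE 0.47, 95% interval -2.69 to -0.58, limma adjusted p = 0.193). Lta, whose product pairs with that of Ltb on the cell surface, was at 0.33, 0, 0.77 and 0.11 FPKM with tacrolimus and at 1.15, 0, 0.65 and 0.86 FPKM with vehicle. It was listed at 0 in 1 library of each group, and only vehicle replicate 1 reached 1 FPKM. Of these 3 neighbouring genes, Ltb did not overlap between the groups, and Tnf and Lta did.

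Tnfsf10 encodes TRAIL, a ligand of death receptors. It was at 0.67, 0.09, 0.15 and 0.30 FPKM in the tacrolimus libraries and at 2.21, 1.02, 0.36 and 0.47 FPKM in the vehicle libraries, and 2 libraries of 8, both from vehicle mice, reached 1 FPKM. Tnfsf14 encodes LIGHT, a costimulatory ligand of the herpesvirus entry mediator. It was at 0.19, 0.35, 0.03 and 0.04 FPKM with tacrolimus and at 1.38, 0.28, 0.92 and 0.57 FPKM with vehicle. Both overlapped between the groups and stayed below the minimum for testing. For Tnfsf14, which has 1 annotated transcript, 1 fragment corresponds to an estimated 0.033 to 0.041 FPKM, so the 2 lowest tacrolimus values are about 1 fragment each.

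The colony-stimulating factors differed from each other in level and spread. Csf2 encodes GM-CSF, a T cell product that acts on myeloid cells (chromosome 11, 54247271 to 54249667, minus strand). It was at 0.67, 0.45, 1.58 and 0.12 FPKM with tacrolimus and at 4.31, 3.41, 1.23 and 0.78 FPKM with vehicle, with overlap between tacrolimus replicate 3 and vehicle replicates 3 and 4. Its log2 difference was -0.93 (SE 0.40, 95% interval -1.82 to -0.05, limma adjusted p = 0.267). Csf1 encodes M-CSF, the survival factor of macrophages (chromosome 3, 107741048 to 107760469, minus strand). It was at 3.05, 2.05, 1.5 and 2.53 FPKM with tacrolimus and at 6.33, 5.64, 3.32 and 3.28 FPKM with vehicle. The groups did not overlap, and the log2 difference was -0.76 (SE 0.25, 95% interval -1.33 to -0.20, limma adjusted p = 0.206). Csf1 had the smallest log2 difference of the 6 genes tested, and also the smallest SE.

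Il16 encodes a chemoattractant cytokine for CD4+ cells that is cut from a larger precursor (chromosome 7, 83642825 to 83745726, minus strand, with 6 annotated transcripts). It was at 1.17, 0.23, 0.81 and 1.38 FPKM in the tacrolimus libraries, against 8.59, 1.73, 3.21 and 3.56 FPKM in the vehicle libraries. No library of one group reached into the range of the other. The log2 difference was -1.36 (SE 0.38, 95% interval -2.20 to -0.53, limma adjusted p = 0.193). Because the values are near the added 1, the difference is understated on this scale: with 0.1 added it was -2.10.

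**Figure D2:**
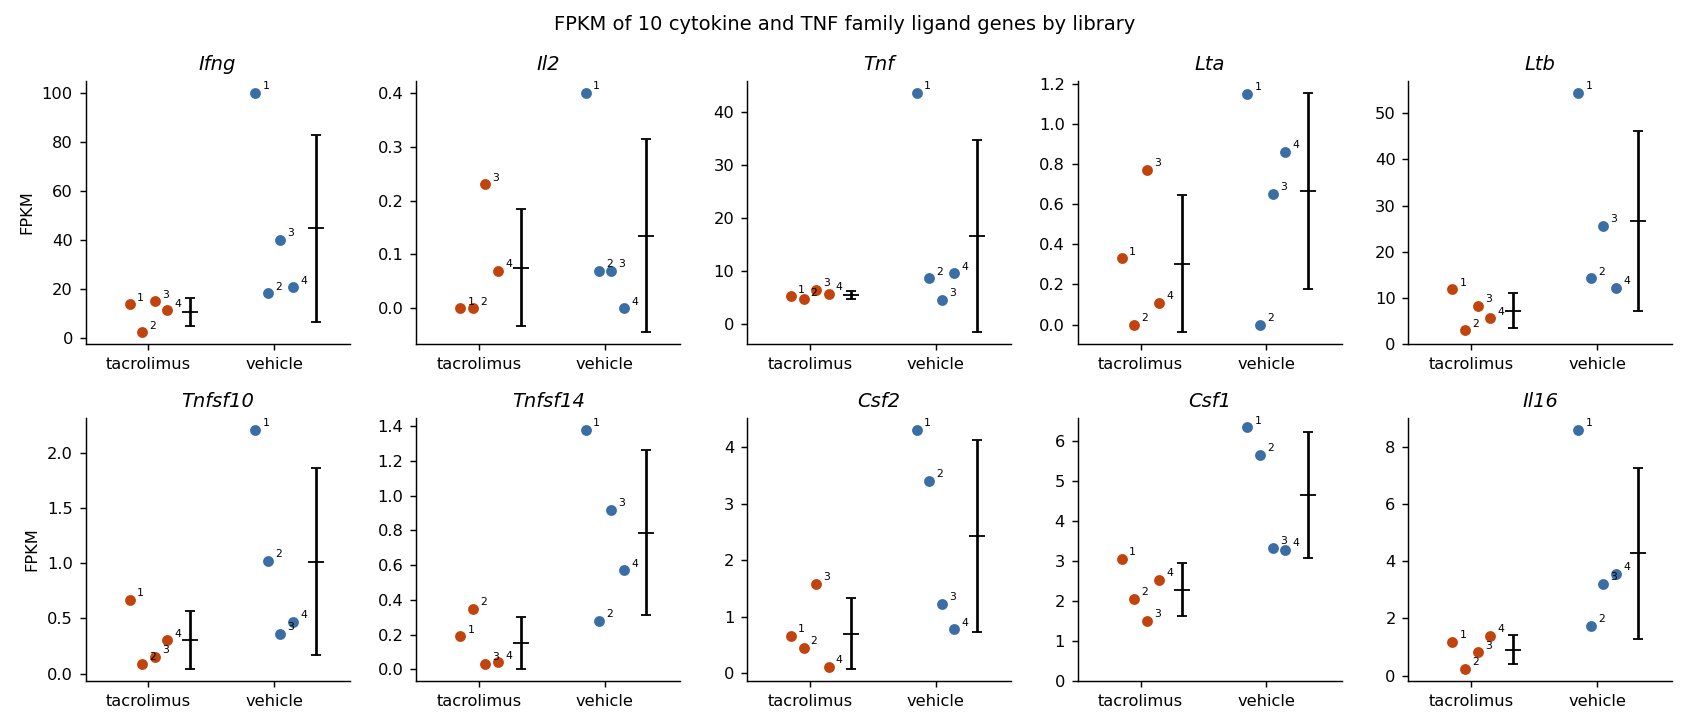
FPKM of the 10 genes in each library, tacrolimus in red and vehicle in blue, with the replicate number beside each point and the mean ± SD as black bars (n = 4 each). Vehicle replicate 1 is the highest point in all 10 panels, and the groups are apart in Ifng, Ltb, Csf1 and Il16.

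By FPKM, which is scaled for length, Ifng was the most abundant of the 10 in both groups, at 10.4 ± 5.68 FPKM with tacrolimus and 44.6 ± 38.1 with vehicle (SD, n = 4 each). Ltb came next, at 7.23 ± 3.81 in tacrolimus and 26.7 ± 19.4 FPKM in vehicle libraries, followed by Tnf, at 5.53 ± 0.79 in tacrolimus and 16.6 ± 18.1 FPKM in vehicle libraries. The order went on with Csf1 (2.28 ± 0.66 in tacrolimus and 4.64 ± 1.58 FPKM in vehicle libraries), Il16 (0.90 ± 0.50 in tacrolimus and 4.27 ± 2.99 FPKM in vehicle libraries) and Csf2 (0.71 ± 0.63 in tacrolimus and 2.43 ± 1.70 FPKM in vehicle libraries). In the tacrolimus libraries Tnf did not overlap with Csf1, nor Csf1 with Il16. All other neighbours in the tacrolimus order, and all neighbours in the vehicle order, overlapped in range. The first 6 places were held by the same genes in the same order in both groups. Il2 was last in both.

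The same genes were then set against Cd3e, as a measure of the T cell RNA in each library. Cd3e itself was 1.93 lower on the log2 scale with tacrolimus (SE 0.52, limma adjusted p = 0.193), close in size to the difference of Ifng. Per 100 FPKM of Cd3e, Ifng was at 29.4, 33.8, 81.5 and 58.4 FPKM in the tacrolimus libraries and at 68.4, 44.4, 64.9 and 27.6 FPKM in the vehicle libraries. The means were 50.8 ± 24.1 in tacrolimus and 51.3 ± 19.0 in vehicle libraries (SD, n = 4 each), and the groups overlapped throughout. Ltb was at 25.9, 46.1, 45.9 and 29.6 FPKM per 100 FPKM of Cd3e with tacrolimus and at 37.3, 35.0, 41.6 and 16.4 with vehicle. Il16 was at 2.54, 3.52, 4.46 and 7.22 with tacrolimus and at 5.89, 4.24, 5.21 and 4.77 with vehicle. In these 3 genes the ranges of the groups overlapped, whereas their FPKM did not.

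Relative to Cd3e, 8 of the 10 genes had a higher group mean with tacrolimus (Tnfsf10 by a trace, at 1.31 in each group), but single libraries carried part of this count. Nearly all genes shared this direction: 99.8% of all genes tested had a log2 difference relative to Cd3e above 0. Without tacrolimus replicate 2, the mean of Tnfsf14 was 0.26 with tacrolimus against 0.97 with vehicle, that of Csf1 was 9.37 against 6.98, and that of Tnf was 25.7 against 17.8. The medians of Lta were 0.65 with tacrolimus and 0.92 with vehicle, the other way round from its means. With all libraries Tnf and Csf1 had 2.08 and 2.13 times the vehicle mean. Tnf was at 11.4, 71.2, 35.9 and 29.9 FPKM per 100 FPKM of Cd3e in the tacrolimus libraries and at 29.8, 21.1, 7.40 and 12.9 in the vehicle libraries. Csf1 was at 6.62, 31.4, 8.26 and 13.2 with tacrolimus and at 4.34, 13.8, 5.39 and 4.39 with vehicle. In both genes tacrolimus replicate 2, with the lowest Cd3e, had the highest ratio, and the groups overlapped. Csf2 was at 1.45, 6.89, 8.70 and 0.63 with tacrolimus and at 2.95, 8.35, 2.0 and 1.04 with vehicle. The ratios of the remaining low genes overlapped as well.

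**Figure D3:**
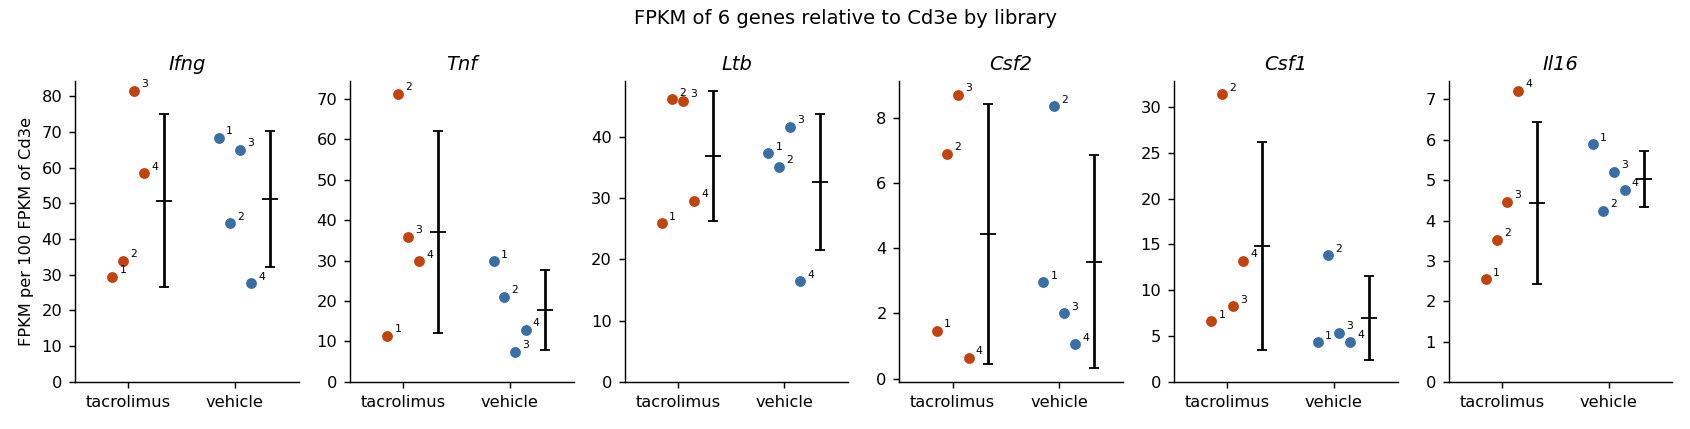
FPKM per 100 FPKM of Cd3e for the 6 genes tested, by library, tacrolimus left and vehicle right, with the replicate number beside each point and the mean ± SD (n = 4 each). The groups overlap in all 6 panels, and tacrolimus replicate 2 is the highest point for Tnf and Csf1.

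On the log2(FPKM + 1) scale, the difference relative to Cd3e was 0.04 for Ifng (95% interval -1.5 to 1.58), 0.30 for Ltb (-1.23 to 1.82) and 0.57 for Il16 (-0.91 to 2.06). It was 0.98 for Tnf (-0.54 to 2.49), 1.0 for Csf2 (-0.48 to 2.48) and 1.17 for Csf1 (-0.32 to 2.66). None of the 6 passed in limma (adjusted p between 0.133 and 0.959), where 5.68% of all genes were called higher. All genes share the Cd3e denominator, and the median of all genes lay at 1.74 on this scale, with 99.8% of genes above 0 and 12.0% higher without overlap. All 6 genes lay below that median, which repeats the values as deposited, since subtracting Cd3e shifts every difference equally. Every one of their intervals held 0. Their SEs were 0.75 to 0.78, against 0.25 to 0.61 for the values as deposited. Without tacrolimus replicate 1, Tnf, Csf2 and Csf1 were called higher relative to Cd3e (limma adjusted p = 0.048, 0.039 and 0.034), in a comparison where 12202 of 12834 genes were called higher. With the log2 level of Cd3e as a covariate instead, the differences were -0.01 for Ifng, 0.01 for Tnf, -0.19 for Ltb, -0.32 for Il16, -0.46 for Csf1 and -0.68 for Csf2 (limma adjusted p between 0.509 and 0.997), against a median of -0.31 over all genes. Ltb, Il16, Csf1 and Csf2, and Ifng by a trace, were above 0 as ratios to Cd3e and below 0 with Cd3e as a covariate. The median of all genes changed sign in the same way, from 1.74 to -0.31. With 0.1 added to the FPKM in place of 1, the ratio difference of Csf2 was 0.29.

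**Figure D4:**
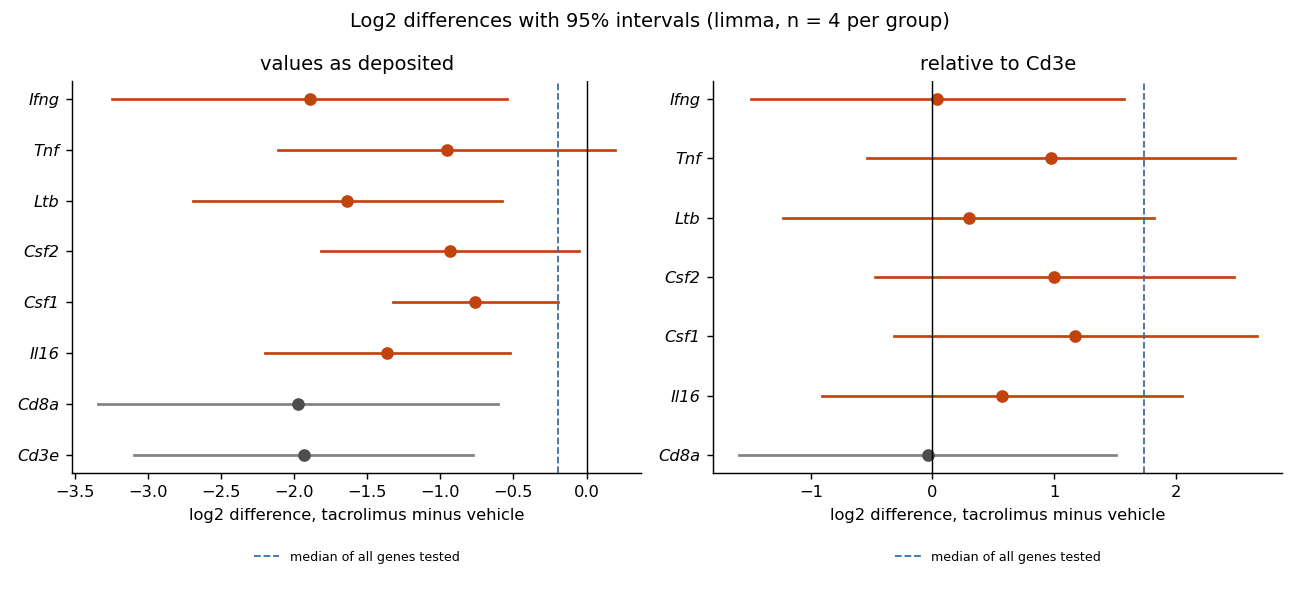
Log2 differences, tacrolimus minus vehicle, with 95% intervals from limma (n = 4 per group), for the values as deposited (left) and relative to Cd3e (right), with the median of all genes tested as a dashed line. On the left the 6 genes lie between -1.89 and -0.76; on the right they lie between 0.04 and 1.17, below the median of 1.74.

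Receptors of these ligands differed among themselves. Of 15 receptor genes, 11 were tested and 10 of these had a lower mean with tacrolimus. The median log2 difference was -1.09, and -0.64 without vehicle replicate 1. None passed the adjustment in limma, and 6 were lower at an unadjusted p under 0.05. Over all genes tested, 75.7% were lower and 15.8% were so at that threshold. With median-of-ratios scaling 8 of the 11 were lower, 5 of them at that threshold. Among all 13011 genes under that scaling, 6376 were lower, 724 of them at that threshold. Il2rb, the beta chain of the interleukin 2 receptor on CD8+ T cells, was at 23.3, 2.73, 8.36 and 11.2 FPKM with tacrolimus and at 85.0, 25.2, 27.2 and 30.8 FPKM with vehicle. Il2rg, the common gamma chain, was at 28.6 ± 13.7 in tacrolimus and 90.2 ± 53.4 FPKM in vehicle libraries (SD, n = 4 each). Tnfrsf1b, which encodes a TNF receptor, was at 7.06, 1.90, 2.70 and 4.61 FPKM with tacrolimus and at 38.0, 9.29, 10.6 and 14.4 FPKM with vehicle. Its log2 difference was -1.80 (SE 0.44, adjusted p = 0.183 in limma). In these 3 genes the groups did not overlap, beside 10.2% of all genes tested that were lower without overlap. Without vehicle replicate 1 the vehicle means were 27.7 FPKM for Il2rb and 11.4 FPKM for Tnfrsf1b.

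The TNF receptor found on most cell types, Tnfrsf1a, averaged 40.0 ± 4.45 FPKM in tacrolimus libraries and 48.0 ± 8.29 FPKM in vehicle libraries. Its log2 difference was -0.25 (SE 0.16, adjusted p = 0.417 in limma). The lymphotoxin beta receptor gene Ltbr, which non-lymphoid cells carry, was at 45.4 ± 7.92 in tacrolimus and 53.2 ± 14.5 FPKM in vehicle libraries. Ifngr2 was at 50.3 ± 11.9 in tacrolimus and 56.6 ± 23.3 FPKM in vehicle libraries, and Ifngr1, the ligand-binding chain, at 27.2 ± 5.83 in tacrolimus and 70.1 ± 54.1 FPKM in vehicle libraries (43.6 FPKM in vehicle without replicate 1). The TRAIL receptor Tnfrsf10b was at 1.71 ± 0.49 in tacrolimus and 1.48 ± 0.37 FPKM in vehicle libraries. The differences of Ltbr, Tnfrsf1a and Ifngr2 lay near the -0.19 of the median gene and had the other sign under upper-quartile scaling. The myeloid receptor genes Csf1r (2.50 ± 0.41 in tacrolimus and 8.70 ± 4.99 FPKM in vehicle libraries), Csf2ra (2.83 ± 0.70 in tacrolimus and 7.46 ± 4.08 FPKM in vehicle libraries) and Csf2rb (1.19 ± 1.09 in tacrolimus and 4.66 ± 4.86 FPKM in vehicle libraries, 2.29 without vehicle replicate 1) had lower means with tacrolimus and overlapped between the groups. The high-affinity chain Il2ra, Tnfrsf14, Csf2rb2 and Cd4 were below the minimum for testing. Cd4, which encodes the receptor of interleukin 16, was at 0.02, 0.34, 0.18 and 0.18 FPKM with tacrolimus and at 0.70, 0.35, 1.80 and 1.11 FPKM with vehicle.

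**Figure D5:**
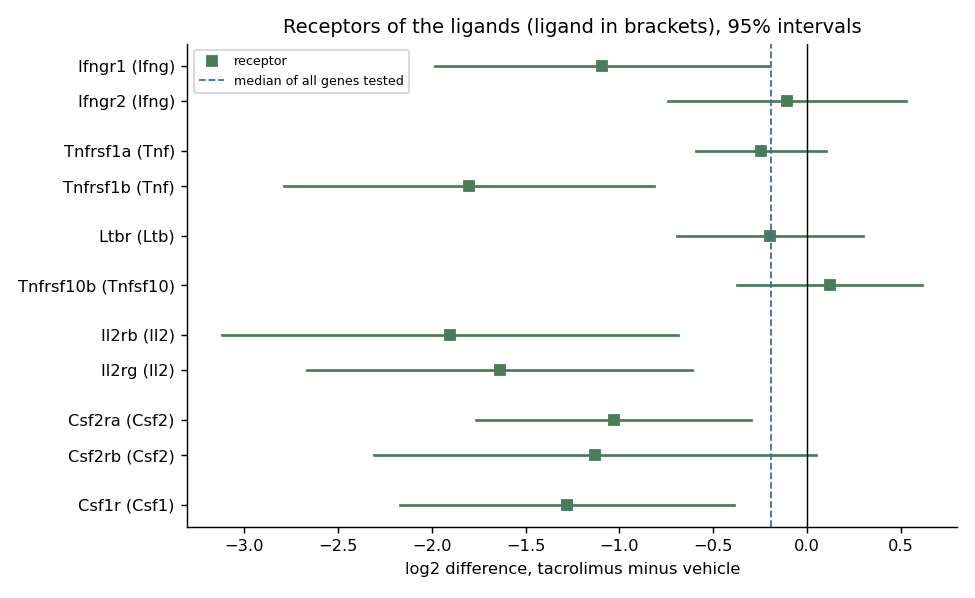
Log2 differences, tacrolimus minus vehicle, of 11 receptor genes with 95% intervals from limma (n = 4 per group), with the ligand in brackets and the median of all genes tested as a dashed line. Tnfrsf1b, Il2rb and Il2rg lie between -1.90 and -1.64, while Ifngr2, Tnfrsf1a, Ltbr and Tnfrsf10b lie between -0.25 and 0.12, the first 3 of them with the other sign under upper-quartile scaling.

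Most of the genes known to be induced by these cytokines had lower means with tacrolimus too, and none passed the adjustment. Of 20 interferon gamma target genes, 17 were tested and all 17 had a lower mean. Of these, 16 were lower at an unadjusted p under 0.05 (12 with median-of-ratios scaling) and 14 did not overlap. The median log2 difference was -1.06, and -0.79 without vehicle replicate 1. Over all genes tested, 75.7% were lower, 15.8% were so at that threshold and 10.2% were lower without overlap. With median-of-ratios scaling, 724 of 13011 genes were lower at that threshold. Igtp and Ifi47, both interferon-inducible GTPase genes, had log2 differences of -1.27 and -1.26 (SE 0.19 and 0.18, limma adjusted p = 0.139 for both, the lowest of all genes).

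Of 12 TNF and NF-kB target genes, all were tested and had a lower mean. The median was -1.08, and -0.73 without vehicle replicate 1. An unadjusted p under 0.05 was reached by 10 (4 with median-of-ratios scaling), beside 15.8% of all genes tested on the lower side. Among all genes under median-of-ratios scaling, 724 of 13011 were lower at that threshold. The groups did not overlap in 6, beside 10.2% of all genes tested. The 3 genes at the lowest p are given here. Nfkb2, a subunit induced through NF-kB, was at 7.01 ± 1.14 in tacrolimus and 14.4 ± 5.20 FPKM in vehicle libraries, Nfkbie, an inhibitor, at 3.51 ± 0.56 in tacrolimus and 8.70 ± 4.21 FPKM in vehicle libraries, and Tnip1 at 11.2 ± 1.58 in tacrolimus and 17.7 ± 2.72 FPKM in vehicle libraries. These 3 are among the 6 that did not overlap. Of 8 interleukin 2 and STAT5 target genes, 7 were tested and 6 had a lower mean. An unadjusted p under 0.05 was reached by 5 of them (3 with median-of-ratios scaling, beside the same 724 of 13011 genes). Over all genes tested, 75.7% were lower and 15.8% were so at that threshold. Socs3, a feedback inhibitor of cytokine receptors, was at 13.7 ± 2.40 in tacrolimus and 29.7 ± 7.82 FPKM in vehicle libraries, Osm, which encodes oncostatin M, at 1.55 ± 0.69 in tacrolimus and 9.40 ± 8.54 FPKM in vehicle libraries (5.28 without vehicle replicate 1), and Myc at 19.3 ± 2.66 in tacrolimus and 27.9 ± 3.10 FPKM in vehicle libraries. These target lists answer to other signals as well, and their members can come from any cell in the sort.

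Further ligands and cytokines outside the 10 were mostly near 0. Of 13 other TNF family ligand genes, 4 were tested and all 4 had a lower mean, beside the 75.7% of all genes tested that were lower. Tnfsf4, which encodes OX40 ligand, was at 1.71, 0.94, 1.02 and 0.57 FPKM with tacrolimus and at 7.78, 3.55, 2.01 and 3.32 FPKM with vehicle. It was the only 1 of the 4 whose groups did not overlap, beside 10.2% of all genes tested that were lower without overlap. Fasl, the death ligand of cytotoxic T cells, was at 3.74, 1.38, 1.15 and 5.48 FPKM with tacrolimus and at 26.5, 3.46, 4.93 and 5.98 FPKM with vehicle, where the mean was 10.2 FPKM, and 4.79 without vehicle replicate 1. Tnfsf9, the most abundant of the 4 and named after its values were seen, was at 22.5 ± 5.51 in tacrolimus and 26.4 ± 6.50 FPKM in vehicle libraries (log2 difference -0.23, SE 0.22, limma adjusted p = 0.588). Of 11 other lymphocyte cytokine genes only 2 were tested, Il10 and Tgfb1, and Il3, Il9 and Il13 were listed at 0 in all 8 libraries. Il10 was at 3.19, 2.52, 4.93 and 6.24 FPKM with tacrolimus and at 28.0, 5.10, 2.71 and 5.95 FPKM with vehicle, with overlap. Its mean was 4.22 FPKM with tacrolimus and 10.45 FPKM with vehicle, and 4.59 FPKM with vehicle without replicate 1. Tgfb1, which encodes a suppressive cytokine of many cell types, was at 11.6 ± 1.85 in tacrolimus and 20.5 ± 4.80 FPKM in vehicle libraries. Of 9 calcineurin and NFAT genes, all tested, 8 were lower, 4 of them at an unadjusted p under 0.05, and the median was -0.34. Among all genes tested, 75.7% were lower, 15.8% were so at that threshold, and the median was -0.19. With median-of-ratios scaling 5 of the 9 were lower, 1 of them at that threshold, and the median was -0.12. Among all 13011 genes under that scaling, 6376 were lower, 724 of them at that threshold, and the median was 0.01. Nfatc1, an NFAT gene that is induced on activation, was at 5.18, 2.36, 1.2 and 2.63 FPKM with tacrolimus and at 14.7, 5.28, 5.65 and 8.61 FPKM with vehicle. The calcineurin subunit genes did not move together: Ppp3r1 and Ppp3cc had log2 differences of -0.34 and -0.58, and Ppp3ca and Ppp3cb of -0.05 and 0.29.

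The genes whose levels were most like those of each member over the 8 libraries differed between members. They were taken by Pearson correlation of log2(FPKM + 1) among 11475 other genes tested. Genes without a symbol, predicted models, pseudogenes and the gene segments of T cell receptors and immunoglobulins were left out. The correlation is a description: both groups and vehicle replicate 1 are in it, and all genes of a library share its mix of cells. For Ifng these were Ptprcap, the T cell adhesion receptor Cd2 and Rhoh (r = 0.98 for each). For Tnf they were Plaur, which encodes the urokinase receptor, Cd300c2 and Inhba (r = 0.99 for each; 0.91 to 0.97 without vehicle replicate 1). For Ltb they were the immunoproteasome gene Psmb8, Lfng and Gna15 (r = 0.98 for each). For Il16 they were Myo1g, the integrin gene Itgb7 and Ucp2 (r = 0.99 for each). For Csf1 they were Fam13b, Ezr and Bcl10 (r = 0.97 to 0.98). For Csf2 they were Ifitm3, Tppp3 and Psmb10 (r = 0.95 to 0.96). With Cd3e the correlation was 0.92 for Ifng, 0.93 for Ltb and for Il16, 0.76 for Csf1, 0.68 for Tnf and 0.58 for Csf2, and without vehicle replicate 1 it was 0.88, 0.90, 0.91, 0.62, 0.44 and 0.33 in that order.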

How the data were processed

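RNA of sorted CD8+ cells from 8 mice was compared, 4 per group, with groups and replicate numbers taken from the sample titles. Per the submitters' processing notes the tools were HISAT2 2.1.0, RSEM 1.3.1 and DESeq2 1.24.0 on GRCm38.p6, with no role or order given. No header or label names the unit of the deposited values, which were inferred to be FPKM, scaled by the authors for length and library size: low values of single-transcript genes lay near whole multiples of a step that shrank with length (84.9% to 88.0% within 0.15 steps, against 30.0% for even values). From this step, depth was estimated. No count model was used.

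The FPKM values became log2(FPKM + 1). The 13032 genes at or above 1 FPKM in 4 libraries or more were tested, and limma 3.58.1 in R 4.3.3 (lmFit, eBayes with a trend) compared tacrolimus with vehicle, with Benjamini-Hochberg adjustment over all genes tested and a threshold of 0.05. The same was done after subtracting log2(Cd3e + 1). The limma step was tested on simulated data. Symbols and coordinates came from GENCODE M21, with 260 identifiers unmatched; promoter windows came from RefSeq. The members and lists were chosen with earlier results of these data known. The rule for named genes took the 10 members, Cd3e, Cd8a, all receptors, the 3 lowest unadjusted p of each list and the 3 genes most like each member; some it takes are left out. Alternatives were 22 settings for the deposited values and 19 relative to Cd3e. No label ties equal replicate numbers to each other, so the main fits did not pair the libraries, and whether they were paired is not known. At most 1.69% of values were identical between 2 libraries. Plots used Python 3.11.15 and matplotlib 3.10.9.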

Additional observations from a re-analysis of the deposited data

Results flagged for a closer look

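Among 42 groups of 4 values, from the 10 genes and Cd3e, 4 held a library whose gap to its nearest neighbour took up more of the group's range than Dixon's 95% critical value allows. Chance gives such a value in about 1 in 20 groups. Tnf was at 43.5 FPKM in vehicle replicate 1, against 4.56 to 9.60 FPKM in the rest of its group. Per 100 FPKM of Cd3e, Lta was at 4.24 in tacrolimus replicate 3, against 0 to 0.72 in the rest of its group, and Tnfsf14 was at 5.36 in tacrolimus replicate 2, the library with the lowest Cd3e, against 0.17 to 0.41 in the rest. Csf1 was at 13.8 per 100 FPKM of Cd3e in vehicle replicate 2, against 4.34 to 5.39 in the rest. Lta and Tnfsf14 were below the minimum for testing.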

How the results depend on the processing

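With the values as deposited, none of the 10 genes was called, and the count was 0 to 0 with each library left out in turn. With the replicate number as a block it was 1 (Ltb, adjusted p = 0.036), where 115 of all genes were called lower and 6 higher, with Cd3e (0.034) and Cd8a (0.048) among them; the labels do not tie equal numbers to each other, and the correlations of deviations of same-numbered libraries were 0.21, 0.28, -0.02 and -0.02, with libraries 1 and 2 closest to their own number. Relative to Cd3e the count was 0, against 2 with no filter on low values (Lta and Il2), 4 with library weights (Tnf, Csf2, Csf1 and Il16), whose estimation did not converge, 3 with the replicate block (Tnf, Csf2, Csf1) and 0 to 3 with each library left out in turn. In these settings most genes were called higher as well: 24277 with no filter, 12864 with weights and 12622 with the block. Of the 135 tested genes of the other lists, 80 were lower at an unadjusted p under 0.05, against 44 with median-of-ratios scaling and 57 to 87 with a library left out. Over all genes tested, 15.8% were lower at that threshold with the values as deposited, and 724 of 13011 genes with median-of-ratios scaling.

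Of 715 single-gene values of the deposited fit under alternatives, 15 had the other sign, as had 7 of 107 relative to Cd3e. With Cd3e as a covariate the log2 difference was 0.0060 for Tnf, 0.061 for Il2rb, 0.21 for Fasl and -0.013 for Tnfrsf10b. With the macrophage covariate it was 0.22 for Tnf and -0.049 for Tnfrsf10b. With median-of-ratios scaling it was 0.12 for Ifngr2 and 0.028 for Ltbr, and with upper-quartile scaling 0.16 for Ifngr2, 0.068 for Ltbr and 0.019 for Tnfrsf1a. Ifngr2 ranged from -0.30 to 0.11 with a library left out. Without tacrolimus replicate 2 and vehicle replicate 1, an alternative chosen after seeing the data, Ifng was at -0.87, Ltb at -0.92, Il16 at -0.83, Csf1 at -0.59, Tnf at -0.28, Cd3e at -1.15 and Tnfrsf10b at -0.026. Relative to Cd3e, Ifng was at -0.039 with 0.1 added, at -0.16 with the T cell genes as the denominator and at -0.22 to 0.28 with a library left out. Ltb was at -0.20 with library weights and Il16 at -0.10 with 0.1 added. The cause was not tested. Csf2 gave no value without tacrolimus replicate 3 or vehicle replicate 1, 2 or 3, since it then missed the minimum. Depth limits Il2, and Lta and Tnfsf14 where their values are lowest.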
